A study of Mus musculus with 4 samples.

Results

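Endothelial identity and angiopoietin genes were followed in RNA described as that of tumor-associated macrophages (TAMs) from NB9464 tumors. The labels name both TAMs and bone marrow derived macrophages (BMDMs) as the source of RNA, so the TAM source is not certain. The group was set by name as 10 genes: *Pecam1*, *Cdh5*, *Tek*, *Tie1*, *Eng*, *Vwf*, *Angpt1*, *Angpt2*, *Emcn* and *Plvap*. All 10 were found among the 54532 mouse genes of the deposited count table, and 9 of them passed the expression filter. NB9464 is a murine neuroblastoma line with amplified *MYCN*, and its cells were implanted under the skin of C57BL/6 mice aged 4 to 6 weeks. The comparison was between mice labelled SYK WT and mice labelled SYK KO, in which floxed *Syk* is deleted in myeloid cells by a Cre recombinase driven from the lysozyme M gene. The labels state no treatment, yet the title of the series names an adoptive transfer of macrophages, so whether SYK WT and SYK KO refer to the host or to transferred cells is not certain. Tumors were taken on day 40, and bead selection for CD11b and F4/80, surface proteins of myeloid cells and macrophages, gave the cells for RNA. Each genotype has 2 libraries, M7 and M8 for SYK WT and M9 and M10 for SYK KO, and the labels do not say whether each came from 1 mouse or from pooled mice.

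Endothelial cells line blood vessels. They are held together by junctional adhesion molecules and carry receptors through which surrounding cells keep vessels quiet or let them sprout. In angiopoietin signalling, *Angpt1*, made mainly by mural cells and other stromal cells, activates the receptor tyrosine kinase Tie2, encoded by *Tek*, and stabilizes vessels. *Angpt2*, released mainly by activated endothelial cells and known to respond to hypoxia, opposes or replaces *Angpt1* depending on context, while *Tie1* encodes a related receptor that binds no angiopoietin on its own and modulates Tie2. Several of these genes are not exclusive to endothelium: *Pecam1* and *Eng* are also transcribed in macrophages and other leukocytes, *Vwf* in megakaryocytes, and *Tek* in a subset of monocytes.

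Library totals lay between 20755886 and 23518045 counts. *Syk*, the deleted gene, was measured at 27.9 and 23.2 CPM in M7 and M8 and at 196 and 160 CPM in M9 and M10, which goes against the labels (log2 fold change 2.80, standard error 0.194, edgeR adjusted p = 0.000674, and 0.07 with macrophage or -0.62 with pan-leukocyte markers as reference), and directions therefore refer to what the libraries are labelled. *Lyz2*, the gene from which Cre is driven, was at 296 and 208 CPM in M7 and M8 and at 8.64 and 20.2 CPM in M9 and M10 (log2 fold change -4.13, standard error 0.433, edgeR adjusted p = 0.00156). It was thus lower where the macrophage markers were higher, although its reads can be divided with the paralog *Lyz1*. Unlike *Syk*, *Lyz2* is not read as going against the labels. Whether the Cre allele itself lowers *Lyz2* counts was not tested. Counts per gene do not show whether the floxed part of *Syk* is present, so deletion itself was not tested. Here CPM are counts scaled to a library total of 1000000 after TMM normalization, which corrects for differences in composition. The 10 macrophage markers summed to 917 to 1294 CPM in the libraries labelled SYK WT and to 6225 to 10373 CPM in those labelled SYK KO, and all 10 were called higher. The 8 fibroblast markers summed to 12626 and 14531 CPM in M7 and M8 against 4039 and 4958 CPM in M9 and M10, so the labelled cell type was not the only one in any library. Most of these sums came from *Col1a1* and *Col3a1* (5662 and 6158 CPM in M7, 1811 and 1990 CPM in M9). For 6 of the 8 both libraries labelled SYK KO lay below both labelled SYK WT, while *Dcn* and *Fap* overlapped. Of the tumor cell markers, *Th* and *Dbh*, enzymes of catecholamine synthesis, had 0 counts in every library, and *Hand2*, a transcription factor of sympathetic neurons, was at 178 to 301 CPM. Mitochondrial genes took 2.20% and 2.34% of counts in M7 and M8, 6.00% in M9 and 15.9% in M10. Counts of the same genotype varied beyond what sampling alone gives, since chi-square divided by its degrees of freedom was 50.6 between M7 and M8 and 168 between M9 and M10.

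The 10 genes together were measured at 261 and 264 CPM in M7 and M8 and at 233 and 191 CPM in M9 and M10. Of the 9 tested, *Tek*, *Tie1* and *Plvap* were lower in the libraries labelled SYK KO with an adjusted p under 0.05 by edgeR's quasi-likelihood test, and 0 were higher, the count at an unadjusted p under 0.05 being the same 3 genes. The 3 genes are 33.3% of those tested, beside 16.7% of all 16451 tested genes called lower, 22.7% called higher and 39.4% called in either direction. At an unadjusted p under 0.05, 22.1% of all tested genes were lower. The median log2 fold change of the 9 was -0.50, beside 0.02 over all tested genes. For 5 of the 10 (*Cdh5*, *Tek*, *Tie1*, *Emcn* and *Plvap*) both libraries labelled SYK KO lay below both labelled SYK WT, for 0 both lay above, and 5 overlapped, whereas 37.2% of all tested genes lay below and 38.0% above in this sense. In RNA from a mixture of cells, fewer endothelial cells and less RNA per endothelial cell cannot be told apart.

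**Figure D1:**
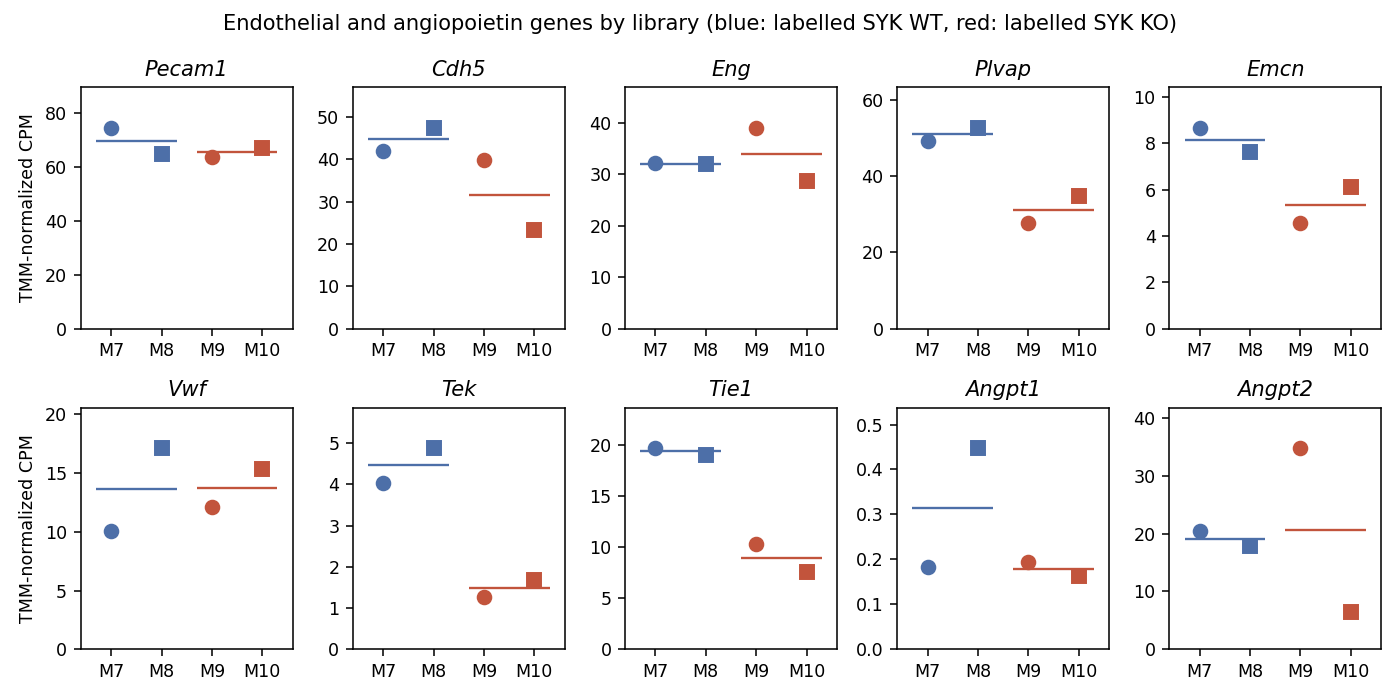
Each panel plots one gene, with TMM-normalized CPM on a linear axis from 0, 1 point per library and a line at the mean of the 2 libraries of a label. *Tek*, *Tie1* and *Plvap* are lower in both libraries labelled SYK KO (scaled to fibroblast markers, the log2 fold changes of *Tie1* and *Plvap* turn positive), and *Angpt2* spans 6.38 to 34.8 CPM within the libraries labelled SYK KO.

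The calls depended on the scaling and on single libraries. Without M7 or without M8 none of the 9 genes passed the threshold, without M9 5 were lower, and without M10 4 were lower and 1 higher. With the fibroblast markers as reference, 3 other genes (*Pecam1*, *Eng* and *Vwf*) were called higher and none lower. That scaling moved the median of all genes by 1.18 on the log2 scale, library size alone moved it by -0.53, macrophage markers by -2.72 and pan-leukocyte markers by -3.41. Relative to the median of all genes, which does not depend on the scaling in this way, *Tek* lay between -1.76 and -1.43, *Tie1* between -1.39 and -0.82 and *Plvap* between -0.80 and -0.56 over the 15 alternatives tried. Scaling moves a gene and this median nearly alike, and other thresholds use the same fit. Those alternatives could thus hardly move these values, and the ranges are no check against them.

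The Tie receptors showed the lowest log2 fold changes of the group. *Tek* (ENSMUSG00000006386, chromosome 4 of GRCm38, 94739289 to 94874976, plus strand), which encodes the angiopoietin receptor Tie2, had 111 and 120 counts in M7 and M8 and 26 and 31 in M9 and M10. These are 4.05, 4.88, 1.26 and 1.69 CPM, so that both libraries labelled SYK KO were below 2 CPM and the labels did not overlap. The means were 4.46 ± 0.591 for SYK WT and 1.48 ± 0.302 for SYK KO (CPM, SD, n = 2 each). *Tek* had a log2 fold change of -1.60 (standard error 0.440, edgeR adjusted p = 0.0303), negative under every scaling tried though no longer past the threshold at -0.43 with fibroblast markers as reference (edgeR adjusted p = 0.455). *Tie1* (ENSMUSG00000033191, chromosome 4, 118471191 to 118490061, minus strand), the second receptor of the family, was measured at 19.7, 19.1, 10.3 and 7.57 CPM in M7 to M10. The libraries labelled SYK WT differed little between themselves, and both others were lower. The means were 19.4 ± 0.452 and 8.96 ± 1.96 CPM (SD, n = 2 each), with a log2 fold change of -1.11 (standard error 0.244, edgeR adjusted p = 0.0145) that became 0.10 with fibroblast markers as reference (adjusted p = 0.828). Without M7 the adjusted p was 0.178 for *Tek* and 0.0895 for *Tie1*, and without M8 it was 0.307 and 0.0866. Per kilobase of exon, *Tie1* was 4.67, 3.75, 7.85 and 4.30 times as abundant as *Tek* in M7 to M10, and this ratio overlapped between labels (exact permutation p = 0.667, two-sided). No stretch of 31 bases is shared between *Tek* and *Tie1* transcripts, so reads that hold such a stretch belong to 1 of the pair.

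RefSeq start sites with upstream sequence were matched for 4 of the 10 genes, *Tek*, *Tie1*, *Eng* and *Emcn*. Of these the *Tek* sequence is shown as that of a gene called lower, and those of *Eng* and *Emcn* as those of endothelial genes that were not called. They hold the bases before the start (GRCm38.p6, plus strand) that lie outside annotated exons, at chr4:94739039-94739288 for *Tek*, chr2:32646345-32646594 for *Eng* and chr3:137340828-137341066 for *Emcn*. The *Emcn* window runs on to 137341077, and its last bases, from an annotated exon onward, are not shown. Positions of words are counted from the start, not from the end of the shown sequence. ETS factors such as ERG and FLI1 and GATA factors are known regulators of endothelial genes, and capitals mark the letters of an ETS word, AGGAAG or its reverse complement CTTCCT.
Tek: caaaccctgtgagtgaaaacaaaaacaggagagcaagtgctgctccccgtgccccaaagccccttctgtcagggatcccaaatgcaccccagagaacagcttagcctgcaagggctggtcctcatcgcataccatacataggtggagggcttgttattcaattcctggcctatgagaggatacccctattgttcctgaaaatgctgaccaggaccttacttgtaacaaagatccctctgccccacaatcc
Eng: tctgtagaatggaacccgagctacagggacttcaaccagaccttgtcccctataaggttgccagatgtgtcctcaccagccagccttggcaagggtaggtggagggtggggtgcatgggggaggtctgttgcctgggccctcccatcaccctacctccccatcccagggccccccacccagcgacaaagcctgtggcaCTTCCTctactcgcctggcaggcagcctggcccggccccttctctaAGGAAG
Emcn: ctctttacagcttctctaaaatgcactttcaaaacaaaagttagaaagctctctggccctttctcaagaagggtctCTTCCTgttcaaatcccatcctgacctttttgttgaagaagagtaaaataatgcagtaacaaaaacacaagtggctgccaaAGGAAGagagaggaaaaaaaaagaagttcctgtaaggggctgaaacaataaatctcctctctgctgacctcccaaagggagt
*Eng* holds the word AGGAAG at 2 places, beginning 52 and 6 bases before the start, and *Emcn* at 2 places, 174 and 93 bases before it. *Tie1*, not shown because an annotated exon begins after the first 38 bases of its window, holds it at 1 place, 219 bases before the start. None was found in the 250 bases before *Tek*. On either strand the word occurs in 29.5% of the 32851 windows of the same length. The ETS word CCGGAA (12.0% of windows) and the GATA word AGATAA (9.99%) were in none of the 4 windows. A match of letters is a description, and a window without one says nothing about binding.

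*Plvap*, *Emcn* and *Cdh5* encode surface proteins of endothelial cells, and all 3 had lower values in both libraries labelled SYK KO, although *Plvap* alone passed the test. *Plvap* (ENSMUSG00000034845, chromosome 8, 71497765 to 71511752, minus strand) encodes the protein of the diaphragms that span endothelial fenestrae and caveolae. It was measured at 49.2, 52.8, 27.7 and 34.8 CPM in M7 to M10. The means of 51.0 ± 2.52 and 31.2 ± 5.05 CPM (SD, n = 2 each) gave a log2 fold change of -0.71 (standard error 0.178, edgeR adjusted p = 0.0230), which was 0.46 with fibroblast markers as reference (adjusted p = 0.154). Without M7 or M8 its adjusted p was 0.102 or 0.179. *Emcn* (ENSMUSG00000054690, chromosome 3, 137341067 to 137432185), encoding the sialomucin endomucin of veins and capillaries, was at 8.68, 7.61, 4.56 and 6.10 CPM. Its log2 fold change was -0.61 (standard error 0.313, edgeR adjusted p = 0.165), with a 95% interval from -1.37 to 0.14.

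*Cdh5* (ENSMUSG00000031871, chromosome 8, 104101625 to 104144511, plus strand) encodes VE-cadherin, the adhesion molecule of endothelial junctions and the member most restricted to endothelium. It was measured at 41.9 and 47.5 CPM in M7 and M8, at 39.9 CPM in M9 and at 23.3 CPM in M10. M9 was thus close to M7, and M10 stood below the other libraries. The log2 fold change of -0.50 (standard error 0.267, 95% interval -1.14 to 0.14, edgeR adjusted p = 0.180) did not pass the threshold. It was -1.03 without M9 (adjusted p = 0.000192) and -0.15 without M10 (adjusted p = 0.488).

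*Pecam1*, *Eng* and *Vwf* overlapped between the labels. *Pecam1* (ENSMUSG00000020717, chromosome 11, 106654217 to 106750628), which encodes the adhesion molecule CD31, was at 74.5, 64.7, 63.5 and 67.0 CPM in M7 to M10. Its log2 fold change of -0.09 has a 95% interval from -0.47 to 0.28 (edgeR adjusted p = 0.665). *Eng* (ENSMUSG00000026814, chromosome 2, 32646595 to 32682669), encoding the TGF-beta co-receptor endoglin, was at 32.2, 32.0, 39.1 and 28.8 CPM, so that M9 was the highest and M10 the lowest of the 4 libraries. Its log2 fold change was 0.08, with a 95% interval from -0.39 to 0.56 (edgeR adjusted p = 0.768). *Eng* shares 61 of its 4048 exon bases with *Fpgs* on the other strand, and whether the counting used strand is not given in the sources used here. *Vwf* (ENSMUSG00000001930, chromosome 6, 125546774 to 125686679) encodes von Willebrand factor, the clotting protein stored by endothelial cells and platelets. It was at 10.1 and 17.1 CPM in M7 and M8 and at 12.1 and 15.4 CPM in M9 and M10, both of which lay between the libraries labelled SYK WT. Its log2 fold change of 0.01 (95% interval -0.74 to 0.77, edgeR adjusted p = 0.98) leaves room for a change of either sign.

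Platelet genes were read beside *Vwf*. Of 8, 5 were tested, 2 were called higher and 1 lower, and their log2 fold changes had a median of -0.33. Over all tested genes 22.7% were called higher and 16.7% lower. *Ppbp* (5.001) and *Pf4* (3.19), chemokine genes of platelets, were the higher pair, whereas *Itga2b* (-1.16), encoding the platelet integrin chain αIIb, was lower. With macrophage or pan-leukocyte markers as reference 1 platelet gene was higher and 3 were lower, and without M7 or without M8 0 were lower. The summed platelet list was 50.5 to 63.8 CPM in the libraries labelled SYK WT and 278 to 669 CPM in those labelled SYK KO, and its part in the values of *Vwf* and *Pecam1* was not tested.

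The angiopoietins differed from each other by far more than the labels differed. *Angpt2* (ENSMUSG00000031465, chromosome 8, 18690263 to 18741562, minus strand, inside the span of *Mcph1* on the other strand with no exon base in common) was at 20.4 and 17.9 CPM in M7 and M8, at 34.8 CPM in M9 and at 6.38 CPM in M10. The 2 libraries labelled SYK KO were the highest and the lowest of the 4 and stood 5.45-fold apart, while the libraries labelled SYK WT stood 1.14-fold apart. *Angpt2* was the sole member over 2-fold apart between M9 and M10. Of all tested genes, 18.7% differed over 2-fold between M9 and M10, and 7.01% did so with M10 the lower. The log2 fold change of *Angpt2* was 0.11 with a standard error of 0.665 (95% interval -1.50 to 1.71, edgeR adjusted p = 0.912). Without M9 it was -1.67 (adjusted p = 2.41e-05), and without M10 it was 0.88 (adjusted p = 0.000533), so the direction of *Angpt2* was set by which library was kept. *Angpt1* (ENSMUSG00000022309, chromosome 15, 42424723 to 42676977, minus strand) had 5, 11, 4 and 3 counts in M7 to M10 (M7 and M8 over 2-fold apart in CPM, as 5.62% of tested genes were), at or little above the 3 counts taken as the smallest detectable signal. It did not pass the expression filter, and no difference between the labels was detectable at this depth (log2 fold change -0.80 and adjusted p = 0.701 when edgeR was run without the filter). Per kilobase of exon, *Angpt2* exceeded *Angpt1* 158-fold and 56.3-fold in M7 and M8 and 252-fold and 55.0-fold in M9 and M10. The *Angpt1* counts are too low to fix these ratios closely. *Angpt1* and *Angpt2* transcripts share no stretch of 31 bases. *Angpt4*, the mouse gene for a further Tie2 ligand, was at 15.3, 19.2, 17.1 and 21.5 CPM, a log2 fold change of 0.16 (edgeR adjusted p = 0.612).

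The order of the genes was compared per kilobase of exon, as CPM per kilobase. *Plvap* was first in every library, with 24.8, 26.6, 13.9 and 17.5 CPM per kilobase in M7 to M10. *Pecam1*, *Cdh5* and *Eng* followed in an order that changed between libraries, within 5.54 to 12.0 CPM per kilobase. *Angpt2*, *Tie1* and *Emcn* came next in this order, and *Angpt1* was last, in all 4 libraries. *Tek* and *Vwf* exchanged places, both between 0.268 and 1.07 CPM per kilobase. The neighbours *Cdh5* and *Angpt2* were nearly equal in M9, at 9.48 and 9.42 CPM per kilobase, and 5.54 and 1.73 in M10.

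Ratios within a library do not depend on how libraries are scaled. *Tek* relative to *Cdh5*, per kilobase, was 0.0862 and 0.0917 in M7 and M8 and 0.0282 and 0.0648 in M9 and M10, lower in both libraries labelled SYK KO. *Tie1* relative to *Cdh5* was 0.402 and 0.344 against 0.222 and 0.278, also without overlap. *Eng* relative to *Cdh5* was 0.797 and 0.70 against 1.02 and 1.28, higher in both. The other 6 ratios to *Cdh5* overlapped, *Plvap* among them at 2.49, 2.35, 1.47 and 3.17. With 2 libraries a label the exact two-sided permutation test cannot give a p below 0.333, which each of the non-overlapping ratios reached (0.778 adjusted over the 14 ratios computed). If labels were assigned at random, that same share of ratios, 0.333, would be without overlap.

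**Figure D2:**
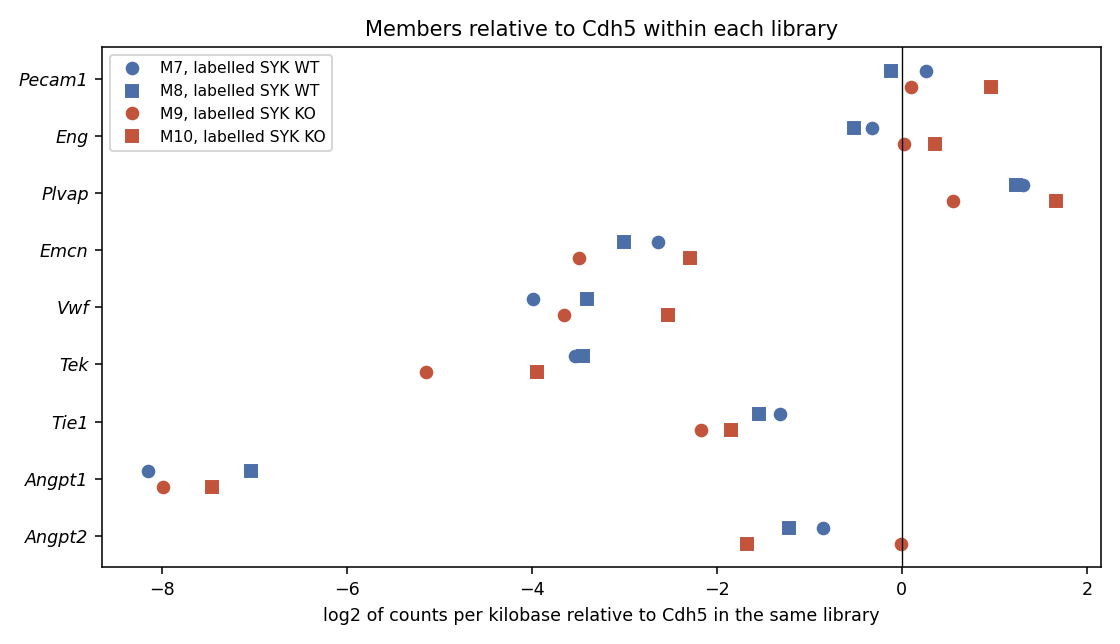
The log2 ratio of each gene to *Cdh5*, in counts per kilobase of exon, is plotted for each library, with blue for the label SYK WT and red for SYK KO. *Tek* and *Tie1* lie further left in both libraries labelled SYK KO and *Eng* further right (exact permutation p = 0.333 each, the smallest possible). The points of *Plvap*, *Emcn* and *Angpt2* from M9 and M10 lie on either side of the blue points.

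A list of 25 other endothelial identity genes was read from the same fit. Of the 24 tested, 6 were lower and 3 higher, 15 did not pass, and the median on the log2 scale was -0.33. Over all tested genes 16.7% were called lower and 22.7% higher. *Clec14a* (-1.46), a surface lectin of tumor endothelium, was lower, as were the VEGF receptor genes *Flt1* (-1.34) and *Kdr* (-1.07), the junction gene *Esam* (-1.06) and *Gpihbp1* (-0.96), which anchors lipoprotein lipase to capillaries. *Kdr*, the receptor that transmits most VEGF signal, was at 37.0 and 36.3 CPM in M7 and M8 and at 17.9 and 16.9 CPM in M9 and M10 (standard error 0.164, edgeR adjusted p = 0.00460), and *Flt1* was at 47.2, 55.3, 24.0 and 16.3 CPM (edgeR adjusted p = 0.00639). Of the 3 higher genes, *Selp* (2.88) encodes the P-selectin of platelets and endothelium, *Fli1* (2.38) an ETS factor of blood and endothelial cells, and *Cd93* (1.75) a receptor of myeloid and endothelial cells. *Pecam1* (-0.09) and *Eng* (0.08), also transcribed in leukocytes, were not called higher. The part of blood cells in these values was not tested. *Fli1* was at 8.02, 6.75, 45.4 and 31.7 CPM, and *Erg*, a related ETS factor, was at 5.32, 5.33, 4.66 and 3.49 CPM (log2 fold change -0.39, edgeR adjusted p = 0.419). *Erg* was picked out after its values were seen. With fibroblast markers as reference 0 genes of this list were lower and 8 higher, whereas with macrophage markers 21 and with pan-leukocyte markers 23 were lower and 0 higher, so *Selp*, *Fli1* and *Cd93* were then not called higher. Without M7 or without M8 2 were lower, without M9 10 were lower, and without M10 6 were higher.

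**Figure D3:**
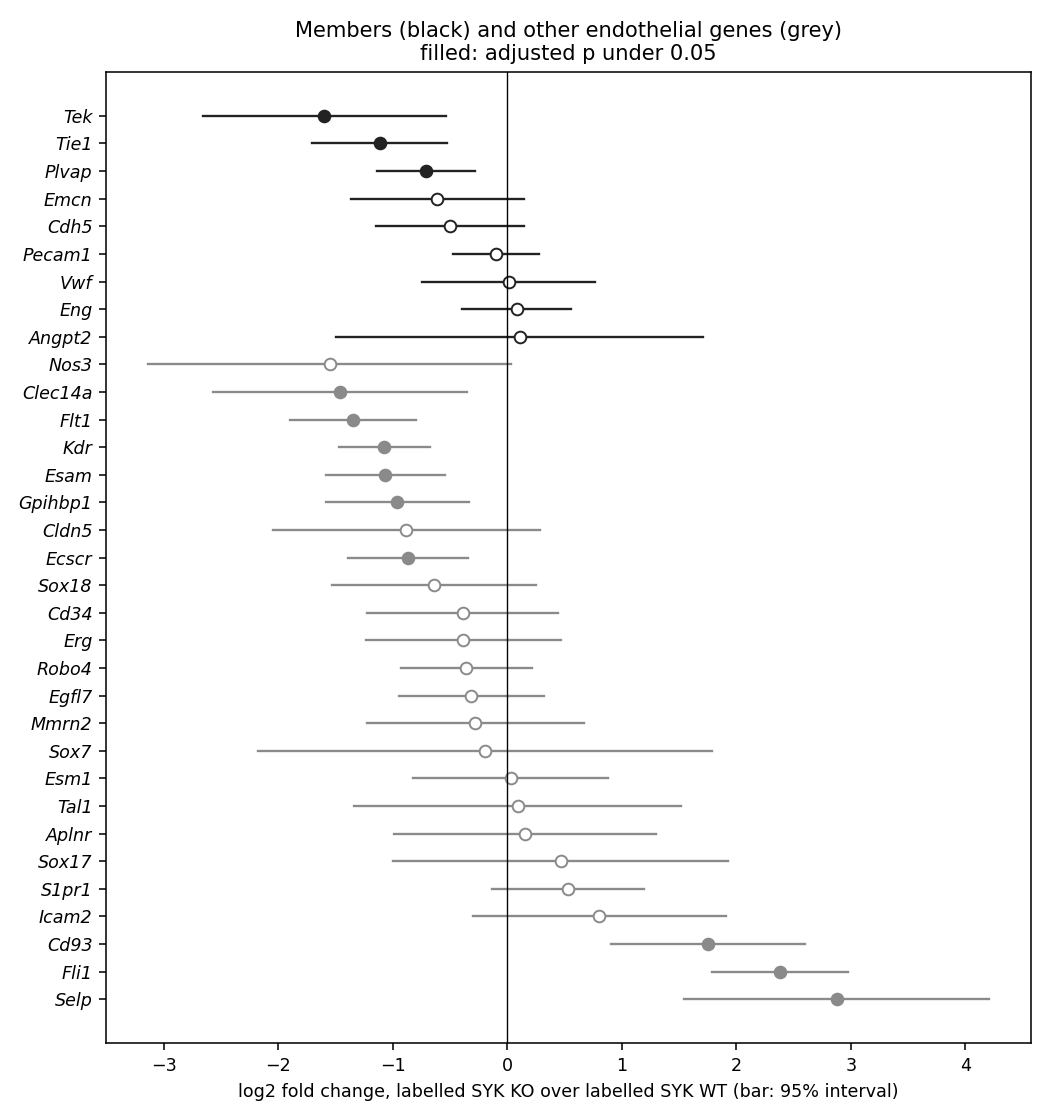
Log2 fold changes of the 9 tested members and of 24 other endothelial genes are plotted with 95% intervals from the edgeR fit, filled where the adjusted p was under 0.05. *Tek*, *Tie1* and *Plvap* lie left of 0 among the members (*Tie1* and *Plvap* move right of it when scaled to fibroblast markers), and *Selp*, *Fli1* and *Cd93* lie right of it.

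Of 16 genes that act with the angiopoietins and Tie receptors, all were tested, 4 were higher and 3 lower, and the median log2 fold change was 0.17. Both counts are near the shares of all tested genes, 22.7% called higher and 16.7% called lower. *Dok2*, a docking protein that binds activated Tie2 and is abundant in leukocytes, was at 10.03 and 7.65 CPM in M7 and M8 and at 107 and 85.5 CPM in M9 and M10 (log2 fold change 3.44, edgeR adjusted p = 0.000626). *Adam17*, a sheddase of surface receptors, rose by 1.495, *Klf2*, a flow-responsive transcription factor, by 1.06 and *Foxo1*, the factor that Tie2 signalling restrains and that drives *Angpt2*, by 0.78 on the log2 scale. *Itga5*, an integrin chain to which angiopoietins can bind, was lower by a log2 fold change of -1.38, *Vegfa* by -0.91 and *Itgav* by -0.79. Under the macrophage reference 0 of the 16 were higher and 15 lower, and under the fibroblast reference 10 were higher and 0 lower. Without M8 2 were higher and 1 lower, without M9 7 were lower, and without M10 5 were lower. A further pair of genes, picked out after their values were seen, also stood far apart in M9 and M10. *Ptprb*, the endothelial phosphatase that silences Tie2, was at 18.8, 19.9, 11.0 and 3.38 CPM (log2 fold change -1.43, edgeR adjusted p = 0.0648), with M9 3.25-fold above M10. *Svep1*, a matrix protein that binds *Tie1*, was at 8.13, 7.81, 0.243 and 2.89 CPM (-2.36, edgeR adjusted p = 0.0800), with M10 11.9-fold above M9.

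Lymphatic endothelial genes were sparse. Of 7, 4 were tested and 2 were called, both higher: *Pdpn* (3.57) and *Lyve1* (1.58), each also known in macrophages or stromal cells. The shares of all tested genes were 22.7% called higher and 16.7% called lower. With macrophage or pan-leukocyte markers as reference 0 were higher and 3 lower, and with library size alone or without M8 1 was higher. *Prox1*, the transcription factor that defines lymphatic endothelium, had 24, 34, 14 and 19 counts (log2 fold change -0.40, edgeR adjusted p = 0.651), and *Flt4*, the VEGF-C receptor, was lower without passing the test (-0.99, adjusted p = 0.0542). *Reln*, *Ccl21a* and *Mmrn1* had 0 counts in at least 1 library and were not tested.

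Cell types that surround vessels moved with the labels as well. Of 10 mural cell genes (pericytes and smooth muscle), 7 were lower and 0 higher, the median on the log2 scale was -1.43, and they summed to 693 to 702 CPM in the libraries labelled SYK WT against 182 to 247 CPM in those labelled SYK KO. Of 8 fibroblast genes, 5 were lower and 0 higher, with a median of -1.49. Over all tested genes 16.7% were called lower and 22.7% higher. With the fibroblast reference 2 mural genes were lower, with a median of -0.26, and of the fibroblast genes themselves 1 was lower and 2 were higher. The 6 pan-leukocyte genes were all higher, with a median of 3.47, and the macrophage median was 2.82, while with either of these lists as reference 0 genes of both were higher. Beside these, *Cdh5* per kilobase relative to the summed fibroblast list was 0.00630 and 0.00617 in M7 and M8 and 0.0186 and 0.00863 in M9 and M10. Relative to the summed mural list it was 0.0645 and 0.0800 against 0.254 and 0.111. Relative to the summed macrophage list it was 0.0143 and 0.0232 against 0.00159 and 0.00151. The endothelial cadherin was thus higher in relation to fibroblast and mural genes and lower in relation to macrophage genes in both libraries labelled SYK KO (exact permutation p = 0.333 for each, the smallest possible). The summed fibroblast list is mostly *Col1a1* and *Col3a1*. The part of these cell types, and of the mitochondrial share, in the values of the 10 genes was not tested.

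**Figure D4:**
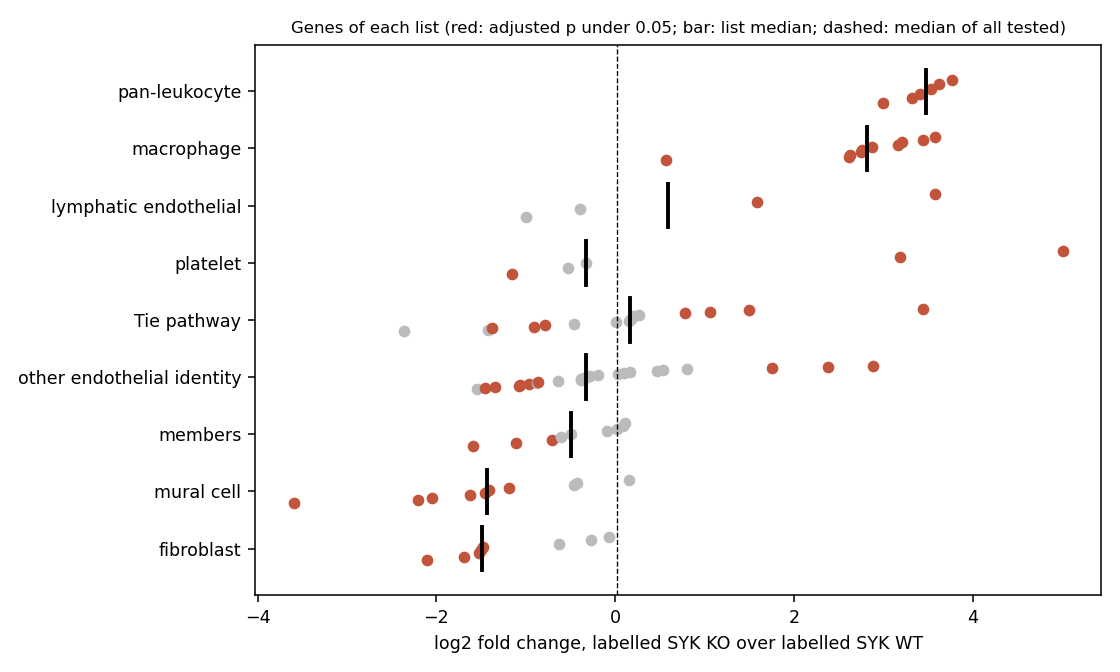
Each point is the log2 fold change of one tested gene, red where the adjusted p was under 0.05, with a bar at the median of its list and a dashed line at 0.02, the median of all tested genes. The 10 endothelial and angiopoietin genes (row "members") have a median of -0.50, between the mural and fibroblast lists on the left and the macrophage and pan-leukocyte lists on the right, and the fibroblast reference would shift the median of all genes right by 1.18.

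The pattern of *Cdh5* over the 4 libraries, as log2 CPM about its mean, was 0.18, 0.36, 0.11 and -0.66 in M7 to M10. Among the 11510 other genes with an average of at least 5 CPM, those with the smallest Euclidean distance to it were *Rhbdd3* (0.0369), *Zfp654* (0.0404), *Platr25* (0.0818), *Rab2b* (0.0856) and *Rsl1* (0.0892). Within the group the nearest were *Tie1* (0.641) and *Eng* (0.670), and *Tek* (1.2998) and *Angpt2* (1.22) were the farthest. Over 4 libraries such a likeness is a description only.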

How the data were processed

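RNA described as that of TAMs from NB9464 tumors was sequenced from 2 libraries labelled SYK WT and 2 labelled SYK KO. Genotypes were taken from the sample titles. Reads had been mapped by the authors to mm10 using STAR (2.6.1d) and quantified by Salmon (1.4.0), versions as in the submitters' processing notes. The deposited counts are whole numbers for each Ensembl gene and are not normalized. How Salmon's estimates became whole numbers is not given in the sources used here. The labels describe paired reads of 150 bases, whereas the paper's methods describe single reads, and the labels name both TAMs and BMDMs as the source of RNA.

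Symbols, positions and exon lengths came from GENCODE M21 on GRCm38, which matched 54495 of 54532 genes, and upstream sequences from RefSeq on GRCm38.p6. Counts passing filterByExpr were compared with edgeR 4.0.16 in R 4.3.3 (TMM, glmQLFit, glmQLFTest, genotype as sole term) with Benjamini-Hochberg adjustment over 16451 genes and a threshold of 0.05. Standard errors were the log2 fold change over the root of the F statistic. Since nothing states that libraries came from separate mice, p-values measure the spread between these libraries, and floors of 3 counts cover counting error only. Ratios were tested by exact permutation. Fits were also run on simulated data with the same dispersion for every gene and no shift in composition. Those runs therefore do not check the scaling or the spread of the real libraries. The members and gene lists were chosen with earlier results of these data known. Named in each list were up to 5 called genes per direction with the largest change and an average of at least 1 CPM, genes against the trend of their list, and the 5 nearest to *Cdh5*. Alternatives were DESeq2 (1.42.0) as test or scaling, library size, macrophage, pan-leukocyte or fibroblast references, omission of mitochondrial and rRNA-like genes, other filters and thresholds, and leaving out each library.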

Additional observations from a re-analysis of the deposited data

How the results depend on the processing

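Library scaling and single libraries decided most calls. Genes called higher and lower numbered 3729 and 2747, but 1677 and 5411 with library size alone, 136 and 14200 with macrophage markers, 70 and 15069 with pan-leukocyte markers and 9476 and 433 with fibroblast markers as reference, and 2426 were higher where a log2 fold change of at least 1 was also asked. Leaving out 1 library gave 1478 to 5010 higher and 807 to 4745 lower, and among the 10 genes 0 to 1 higher and 0 to 5 lower. Of those genes 6 were lower with library size alone, 9 with macrophage and 9 with pan-leukocyte markers, and with fibroblast markers 0 were lower and 3 higher. *Tek*, *Tie1* and *Plvap* stayed lower under DESeq2 (test or size factors), both other filters and the omission of mitochondrial and rRNA-like genes. At the threshold of 0.1 they stay called by definition.

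Log2 fold changes changed sign as follows. With fibroblast markers they were 1.08 for *Pecam1*, 0.74 for *Cdh5*, 0.10 for *Tie1*, 0.54 for *Emcn* and 0.46 for *Plvap*. With library size alone *Eng* was -0.44, *Vwf* -0.52 and *Angpt2* -0.38, with macrophage markers they were -2.70, -2.74 and -2.84, and with pan-leukocyte markers -3.37, -3.41 and -3.47, where *Syk* was -0.62. *Vwf* was -0.030 with DESeq2 size factors, -0.055 with at least 10 counts, -0.073 without mitochondrial and rRNA-like genes (*Eng* -0.0057) and -0.039 with the DESeq2 Wald test. Leaving out 1 library gave -0.20 to 0.010 for *Pecam1*, -0.25 to 0.30 for *Eng*, -0.32 to 0.43 for *Vwf* and -1.67 to 0.88 for *Angpt2*. Leaving out 1 library moved the log2 ratio difference between -0.78 and 1.42 for *Angpt2* to *Angpt1*, and relative to *Cdh5* between -0.69 and 0.43 for *Angpt1*, -0.64 and 1.03 for *Angpt2*, -0.67 and 0.53 for *Emcn* and -0.72 and 0.39 for *Plvap*. The cause was not tested. No paired analysis was possible because the groups share no replicate numbers. With 2 libraries a label, and as few as 3 counts for *Angpt1*, small changes could not be resolved, and leaving out a library assumes that the lone one varies like the other label.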
